A study of Mus musculus with 6 samples.

Results

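The 10 genes studied here mark long-term haematopoietic stem cells and were followed in KLS cells, the Kit-positive, Sca-1-positive, lineage-negative fraction of bone marrow that holds the stem cells and the multipotent progenitors. They are Procr, Slamf1, Fgd5, Hlf, Mllt3, Mecom, Ctnnal1, Esam, Robo4 and Tek. They were chosen by name from what is known of these cells, and the gene lists below likewise, with earlier results of these data known. All 10 were among the 20059 genes measured. One array was hybridised per sample, 3 from wild-type and 3 from Dnmt3a+/- cells. In Dnmt3a+/- cells only 1 allele of Dnmt3a, which encodes a DNA methyltransferase, is intact. The labels name neither the strain, the age, the part of the gene that was disrupted nor the number of animals behind a sample. The spread that the p-values rest on may therefore be technical in part. By its title, the study asks how having a single intact copy of Dnmt3a predisposes blood cells to myeloid malignancy. The comparison here is whether the genes that identify the most primitive cells of the fraction differ between the genotypes.

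Long-term stem cells renew themselves for life and are rare within KLS cells, most of which are progenitors with shorter output. They are recognised by surface proteins such as the SLAM receptor CD150, the product of Slamf1, and the endothelial protein C receptor EPCR, the product of Procr. They also express transcription factors that maintain self-renewal, among them Hlf and Mecom. Several of the genes are shared with endothelial cells, which arise from related embryonic precursors. A level in a mixed fraction can change because there are fewer stem cells or because each holds less RNA, and these bulk arrays cannot tell them apart.

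Dnmt3a methylates cytosine in CG pairs, and the stretches before the start sites of these genes differ widely in how many CG pairs they hold. Of the members 9 had an entry in the RefSeq promoter table of build GRCm38.p6, with 11 start sites in all. In the 250 bases before the start, the number of CG pairs ran from 2 for Robo4 and for Tek to 31 for Fgd5. The median over all 32851 windows of that length was 6, with quartiles of 2 and 16. The other counts were 3 for Slamf1, 13 for Procr, 18 for Ctnnal1, 23 and 4 for the start sites of Mllt3 and 26 for Hlf. Mecom had 14 at its upstream start and 8 at its downstream start. The windows with the most and with a joint-fewest CG pairs are shown, with both of Mecom, whose probe sets carry either of the old names Mds1 and Evi1. CG pairs are in capitals, and each window is read 5′ to 3′ on the strand of its gene. Fgd5 is on the plus strand at chr6:91978715-91978964, Robo4 on the plus strand at chr9:37401722-37401971, and Mecom on the minus strand at chr3:30509760-30510009 (upstream) and chr3:30013205-30013454 (downstream).
Fgd5: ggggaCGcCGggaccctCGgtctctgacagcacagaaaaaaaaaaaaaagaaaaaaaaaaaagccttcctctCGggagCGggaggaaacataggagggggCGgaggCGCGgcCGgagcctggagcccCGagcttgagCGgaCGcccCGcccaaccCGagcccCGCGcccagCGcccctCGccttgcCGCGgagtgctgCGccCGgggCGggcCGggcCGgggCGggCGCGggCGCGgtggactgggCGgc
Robo4: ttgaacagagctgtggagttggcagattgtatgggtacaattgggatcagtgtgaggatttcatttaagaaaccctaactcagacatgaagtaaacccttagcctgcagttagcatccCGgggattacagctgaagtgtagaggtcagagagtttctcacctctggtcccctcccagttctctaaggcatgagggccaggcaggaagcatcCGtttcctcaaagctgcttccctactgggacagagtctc
Mecom upstream start: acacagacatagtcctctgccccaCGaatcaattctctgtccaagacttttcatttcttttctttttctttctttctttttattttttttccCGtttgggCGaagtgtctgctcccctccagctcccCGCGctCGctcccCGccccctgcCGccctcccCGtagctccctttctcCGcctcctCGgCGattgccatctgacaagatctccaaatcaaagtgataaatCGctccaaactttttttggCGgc
Mecom downstream start: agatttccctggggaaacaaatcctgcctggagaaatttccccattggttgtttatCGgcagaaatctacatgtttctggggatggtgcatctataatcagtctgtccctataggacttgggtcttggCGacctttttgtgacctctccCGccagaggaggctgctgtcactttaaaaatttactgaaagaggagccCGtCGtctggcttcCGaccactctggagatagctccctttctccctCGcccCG
Methylation was not measured here, so these windows describe the genes and not the arrays.

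Motifs of blood transcription factors were counted in the 11 windows. The Ets motif AGGAAG, counted on both strands, occurred in 3 of them (Fgd5, Robo4 and Slamf1), against 29.5% of all windows. The E-box CACCTG occurred in 2 (Hlf and Slamf1), against 17.2% of all. The Gata motif GATAAG (6.55% of all windows), the Runx motif TGTGGT (14.05%) and TTACGTAA, the motif of the Hlf family (0.113%), were found in 0 of the 11. None of these motifs contains another. These are matches of letters in a short window and describe no binding.

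The arrays were close to each other, with correlations across genes of 0.897 to 0.964 between any pair, and Dnmt3a+/- replicate 2 was the least similar, at 0.904 on average. Its log2 deviations from the wild-type mean had a median of 0.15 for the dimmest and -0.27 for the brightest 10% of genes. Dnmt3a, the targeted gene, read 8.51, 8.70 and 8.50 on the wild-type arrays and 8.38, 8.20 and 8.20 on the Dnmt3a+/- ones on the log2 scale. The genotypes did not overlap, as for 15.8% of all genes. The log2 difference was -0.31 (SE 0.12, unadjusted p = 0.0303, limma, adjusted p = 0.631). The sort genes Kit and Ly6a, which encode Kit and Sca-1, differed by -0.11 (SE 0.10) and -0.02 (SE 0.13) on the log2 scale, with Kit lower on all Dnmt3a+/- arrays and Ly6a overlapping. The list read with the gate also held Ptprc and Ly6e, which encode neither Kit nor Sca-1. Ptprc, the leukocyte antigen CD45, differed by -0.27 (SE 0.11, unadjusted p = 0.0411, limma, adjusted p = 0.631), with no overlap, and Ly6e by -0.05 (SE 0.11). All 4 listed genes had a lower mean in Dnmt3a+/- cells, beside 54.3% of all genes. After either other scaling (cyclic loess or a second quantile normalization) it was 3 of 4. Over all genes 0 passed at adjusted p 0.05 (limma), or 0% of 20059, and 1502, or 7.49%, had an unadjusted p under 0.05.

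The identity markers did not separate the genotypes. Their log2 differences, Dnmt3a+/- minus wild-type, ran from -0.12 for Ctnnal1 and for Hlf to 0.08 for Fgd5. Of the 10, 5 were lower and 5 were higher in Dnmt3a+/- cells, where 54.3% of all genes were lower and 45.7% higher. The median over the 10 was -0.01, beside -0.02 over all genes. For 0 of the 10 did the genotypes fail to overlap, where 15.8% of all genes did not overlap (9.05% lower and 6.74% higher). An unadjusted p under 0.05 (limma) was found for 0 of the 10, beside 7.49% of all genes. With limma the adjusted p-values over all genes were 0.726 to 0.998. The absolute differences lay between the percentiles 0.623 (Tek) and 44.5 (Ctnnal1) of all genes, so each was smaller than that of the median gene. This ranking takes no account of the number of probe sets averaged in a gene value, which was 5 (Slamf1) to 30 (Robo4) for the markers.

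**Figure D1:**
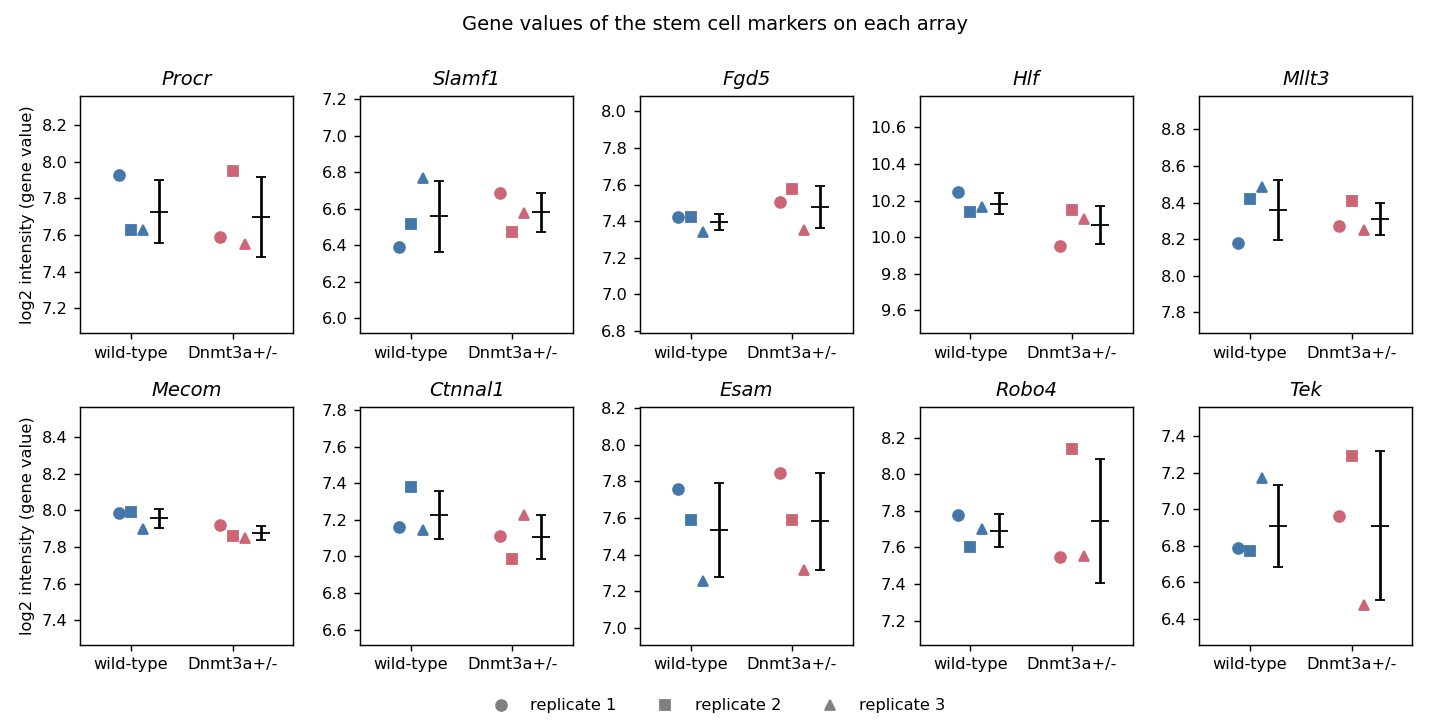
Gene values of the 10 markers on each array, on the log2 intensity scale (vertical axis, the same span in every panel), for 3 wild-type (blue) and 3 Dnmt3a+/- arrays (red); the bars are mean ± SD and the marker shape gives the replicate number. In each panel the genotypes overlap, and the widest spread is that of Tek in Dnmt3a+/- cells, from 6.48 to 7.29.

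Among the surface receptors, Procr encodes EPCR, which binds protein C and tethers stem cells in the marrow. Its gene value was 7.93, 7.63 and 7.63 on the wild-type arrays and 7.59, 7.95 and 7.55 on the Dnmt3a+/- ones (log2 level). Each genotype had a single high array, replicate 1 in wild-type and replicate 2 in Dnmt3a+/-, and the other 4 lay close together. The log2 difference was -0.03 (SE 0.15), or a fold of 0.979 with a 95% confidence interval of 0.770 to 1.25. Slamf1, the CD150 gene that separates stem cells from most other KLS cells, read 6.39, 6.51 and 6.77 in wild-type. It read 6.69, 6.47 and 6.58 in Dnmt3a+/- cells. The Dnmt3a+/- arrays all fell within the wild-type range, and the fold was 1.01 (95% confidence interval 0.820 to 1.26).

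Esam, a junction adhesion protein of endothelium that also marks stem cells, read 7.76, 7.59 and 7.25 on the wild-type arrays and 7.84, 7.59 and 7.31 on the Dnmt3a+/- ones. Both genotypes spanned about the same range, 0.50 and 0.53 on the log2 scale, and the fold was 1.03 (95% confidence interval 0.774 to 1.38). Robo4, a roundabout receptor that helps to anchor stem cells in the niche, read 7.78, 7.60 and 7.70 on the wild-type arrays and 7.55, 8.14 and 7.55 on the Dnmt3a+/- ones. Dnmt3a+/- replicate 2 was above every other array, and the other Dnmt3a+/- arrays were below all of the wild-type ones. The mean difference of 0.05 (SE 0.17) therefore averaged opposite positions, and without Dnmt3a+/- replicate 2 it was -0.14 (limma, adjusted p = 0.889). Tek encodes Tie2, the receptor for angiopoietins that keeps stem cells quiescent. It read 6.79, 6.77 and 7.17 on the wild-type arrays and 6.96, 7.29 and 6.48 on the Dnmt3a+/- ones, so the Dnmt3a+/- arrays held both the highest and the lowest value. Its fold of 1.001 had the widest interval of the 10, from 0.709 to 1.41, and the difference was -0.19 without Dnmt3a+/- replicate 2.

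The transcriptional regulators had narrower intervals. Hlf, a PAR bZIP factor that keeps stem cells from dividing too often, read 10.25, 10.14 and 10.17 on the wild-type arrays and 9.95, 10.15 and 10.10 on the Dnmt3a+/- ones. Of the Dnmt3a+/- arrays 1 lay inside the wild-type range and 2 lay below it. The log2 difference was -0.12 (SE 0.11), a fold of 0.922 with a 95% confidence interval of 0.774 to 1.10 (exact two-sided permutation p = 0.2, where 3 against 3 arrays allow no p below 0.1). Mecom, which encodes the zinc finger factors Evi1 and Mds1-Evi1 that stem cells need for self-renewal, read 7.99, 7.99 and 7.90 on the wild-type arrays and 7.92, 7.86 and 7.85 on the Dnmt3a+/- ones. Only wild-type replicate 3 and Dnmt3a+/- replicate 1 overlapped. Its difference of -0.08 (SE 0.10) gave a fold of 0.945 (95% confidence interval 0.803 to 1.11), the narrowest interval of the 10. Mllt3, whose product AF9 reads acylated histones and recruits the Dot1l complex, read 8.18, 8.42 and 8.48 on the wild-type arrays and 8.27, 8.41 and 8.25 on the Dnmt3a+/- ones. The Dnmt3a+/- arrays all lay inside the wild-type range, with a fold of 0.966 (95% confidence interval 0.793 to 1.18).

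The remaining pair are used mainly as reporter loci for stem cells. Fgd5, an exchange factor for Cdc42, read 7.42, 7.42 and 7.34 on the wild-type arrays and 7.50, 7.58 and 7.35 on the Dnmt3a+/- ones. It was above all wild-type arrays on 2 of the 3 Dnmt3a+/- arrays, with a fold of 1.06 (95% confidence interval 0.888 to 1.26). Ctnnal1, alpha-catulin, a relative of the alpha-catenins, read 7.16, 7.38 and 7.15 on the wild-type arrays and 7.11, 6.99 and 7.23 on the Dnmt3a+/- ones. Here 2 of the 3 Dnmt3a+/- arrays lay below all wild-type arrays, with a fold of 0.920 (95% confidence interval 0.757 to 1.12). None of the 10 intervals excludes a fold of 1, and their limits ran from 0.709 to 1.41, both of Tek.

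**Figure D2:**
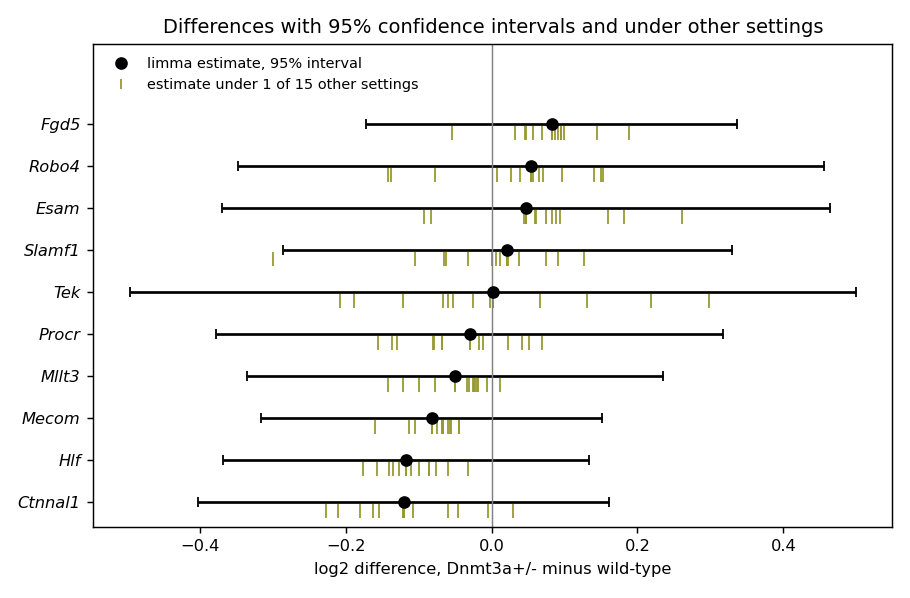
Log2 difference of each marker (horizontal axis), Dnmt3a+/- minus wild-type, with its 95% confidence interval from limma (black, n = 3 against 3), and the estimates under 15 other settings (ticks). All intervals include 0, and the ticks of Hlf (-0.18 to -0.03) and Mecom (-0.16 to -0.04) are the only ones that stay on one side of 0.

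The Dnmt3a+/- arrays did not shift together. Dnmt3a+/- replicate 2 had the highest value of its genotype for 6 of the 10 markers and the highest of all arrays for 4 (Procr, Fgd5, Robo4 and Tek). Dnmt3a+/- replicate 3 had the lowest of its genotype for 6, and 9 of its 10 markers were below the wild-type mean. The median deviation of the 10 markers from the wild-type mean was 0.03, -0.01 and -0.04 on the wild-type arrays and -0.06, 0.05 and -0.11 on the Dnmt3a+/- arrays (log2). The Dnmt3a+/- arrays thus lay on both sides of the wild-type ones. Without replicate 2, the array that stood apart, 7 of the 10 were lower with a median of -0.09. Over all genes 10340 of 20059 were then lower, with a median of -0.0064. Of the 10, 0 then had an unadjusted p under 0.05 (limma), beside 1085 of 20059 genes. Procr, Hlf and Robo4 then did not overlap between the genotypes, all of them lower, where 22.5% of all genes did not overlap. The part of that array in the values was not tested.

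Single probe sets, each a short stretch of the gene, showed how much of a gene value is shared along the gene. The platform named 237 probe sets for the 10 genes, and 190 (80.2%) lay above the median level of the table. All probe sets passed for Hlf (25) and Esam (11), but 16 of 31 for Tek and 5 of 10 for Slamf1, so the last of these gene values rests on few measurements. Tek and Slamf1 had the lowest mean levels of the 10, 6.91 and 6.57, near the cut of 5.89. Of the 47 dim probe sets left out, 29 were lower in Dnmt3a+/- cells, with 10 of 15 for Tek and 4 of 5 for Slamf1. The share lower over all dim probe sets was not counted, so these counts have no background to be read against. Of the 190, 97 had a lower mean in Dnmt3a+/- cells, or 51.1%, where 50.3% of all 628415 probe sets had. An unadjusted p under 0.05 was found for 10, or 5.26%, where 6.21% of all had one. Of the 10, 8 were lower and 2 higher, beside 3.41% and 2.8% of all, and 0 passed after adjustment (limma, smallest adjusted p = 0.799, 0% of all). The genotypes did not overlap for 17, or 8.95%, beside 12.4% of all.

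**Figure D3:**
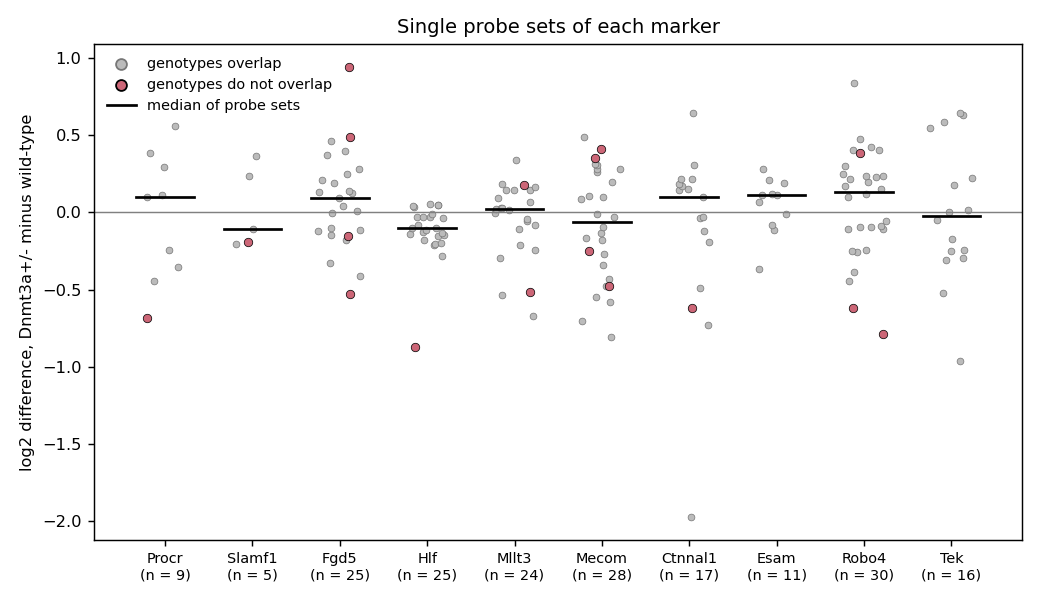
Log2 difference of each probe set above the median level (vertical axis), Dnmt3a+/- minus wild-type, by gene; red points are probe sets whose genotypes do not overlap and bars are medians. Most points scatter on both sides of 0, those of Hlf cluster just below it, and 1 probe set of Ctnnal1 lies at -1.97.

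Hlf had the largest share of probe sets on one side of 0. Of its 25 probe sets 20 were lower in Dnmt3a+/- cells, with a median of -0.10 and a range from -0.87 to 0.05. The extreme, probe set 4380308, read 8.20, 7.97 and 7.96 on the wild-type arrays and 7.48, 6.997 and 7.05 on the Dnmt3a+/- ones. The genotypes were well apart there (unadjusted p = 0.00372, limma, adjusted p = 0.799), and without it the Hlf difference was -0.09. In Ctnnal1, by contrast, probe set 4407694 read 8.84, 7.10 and 6.50 on the wild-type arrays and 5.76, 4.13 and 6.63 on the Dnmt3a+/- ones. That single probe set differed by -1.97 (SE 0.78) with wide spread in both genotypes. Without it the Ctnnal1 difference went from -0.12 to -0.0048, and 9 of its 17 probe sets were higher in Dnmt3a+/- cells.

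Fgd5 held probe sets that moved in opposite ways. Its brightest, 5248572, read 11.27, 11.58 and 11.56 on the wild-type arrays and 11.96, 11.97 and 11.94 on the Dnmt3a+/- ones. All Dnmt3a+/- arrays were above the wild-type ones there, by 0.49 (SE 0.18). Probe set 5080050 read 7.29, 7.31 and 6.997 on the wild-type arrays and 6.77, 6.74 and 6.51 on the Dnmt3a+/- ones, which is lower on every array. Both had unadjusted p-values under 0.05 (0.0286 and 0.0261, limma), and neither passed after adjustment (adjusted p = 0.799 for each). Their positions within the gene were not used here.

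Mecom probe sets fell under 2 old names. The 25 measured ones named Evi1 had a median difference of -0.14, with 15 lower and 10 higher. The 3 named Mds1, the old name of the upstream part of the locus that adds to the longer Mds1-Evi1 protein, differed by -0.03, 0.28 and 0.30. The brightest of these, 5521258, read 9.40, 9.97 and 9.24 on the wild-type arrays and 9.85, 10.6 and 9.06 on the Dnmt3a+/- ones, and the genotypes overlapped. For Procr, probe set 5180576 read 8.32, 8.60 and 8.61 on the wild-type arrays and 7.83, 7.88 and 7.77 on the Dnmt3a+/- ones, lower on all arrays (unadjusted p = 0.00612, limma, adjusted p = 0.799). The other 8 measured Procr probe sets included 5 that were higher in Dnmt3a+/- cells.

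Genes that work with the markers, or belong to the same families, were taken as a list of 45, all of them measured. At unadjusted p under 0.05, 4 were lower and 0 higher in Dnmt3a+/- cells, where 4.57% of all genes were lower and 2.92% higher. The 4 became 2 without wild-type replicate 2 or Dnmt3a+/- replicate 2. The list median was -0.02. For Tek, the ligands Angpt1 and Angpt2 differed by -0.16 (SE 0.13) and -0.0019 (SE 0.17), and the sister receptor Tie1 by -0.02 (SE 0.16). The Robo4 relatives Robo1, Robo2 and Robo3 lay between 0.04 and 0.07, and the ligands Slit2 and Slit3 at 0.05 (SE 0.12) and 0.12 (SE 0.12). For Procr, the ligand gene Proc stood at 0.07 (SE 0.15) and thrombomodulin, Thbd, at -0.16 (SE 0.16). The PAR bZIP relatives of Hlf, Tef and Dbp, stood at -0.02 (SE 0.13) and -0.13 (SE 0.10).

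Partners of Mllt3 included genes with larger values. Aff4, a scaffold of the elongation complex that AF9 joins, read 9.23, 9.13 and 9.09 on the wild-type arrays and 8.93, 8.71 and 8.57 on the Dnmt3a+/- ones. The genotypes did not overlap, and the log2 difference was -0.42 (SE 0.13, unadjusted p = 0.0115, limma, adjusted p = 0.631). Mllt10, which binds Dot1l, differed by -0.31 (SE 0.12), and Dot1l itself, a histone methyltransferase, by -0.08 (SE 0.11). Mllt1, the closest relative of Mllt3, stood at 0.04 (SE 0.15).

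The SLAM family, to which Slamf1 belongs, was lower in 6 of the 8 other members measured, with a median of -0.25. Over all genes 54.3% were lower, with a median of -0.02. The SLAM members are immune receptors, and Cd48 and Cd244a are absent from long-term stem cells but present on progenitors. Cd244a read 8.10, 8.24 and 8.02 on the wild-type arrays and 7.63, 6.94 and 7.83 on the Dnmt3a+/- ones. All Dnmt3a+/- arrays were below the wild-type ones, and the difference was -0.65 (SE 0.22, unadjusted p = 0.0188, limma, adjusted p = 0.631). Ly9 differed by -0.35 (SE 0.12) and did not overlap either, while Cd48 stood at -0.27 (SE 0.17) and overlapped. Over all genes 15.8% did not overlap. Cd244a and Ly9 were the 2 of 8 with an unadjusted p under 0.05 (limma), beside 7.49% of all genes. The 2 became 1 with no filter on dim probe sets and with the median of probe sets. They also became 1 without wild-type replicate 2 or 3 or Dnmt3a+/- replicate 2. Under both other scalings 7 of the 8 were lower, and without Dnmt3a+/- replicate 2 it was 5 of 8 with a median of -0.10. The family was singled out after the values were seen, and none passed over all genes. The difference between Slamf1 and its relatives was not tested.

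Among other genes of long-term stem cells 22 of 32 measured were lower, with a median of -0.04, beside 54.3% of all genes lower, and 1 had an unadjusted p under 0.05, beside 7.49% of all genes. That was Tgm2, a transglutaminase, at 0.29 (SE 0.12), followed by the imprinted Ndn at -0.52 (SE 0.24) and the receptor Cd27 at -0.19 (SE 0.11). After cyclic loess 17 of the 32 were lower. Genes of multipotent progenitors had 16 of 17 on the lower side with a median of -0.24, and 3 had an unadjusted p under 0.05, all lower (17.6% of the list, beside 4.57% of all genes). They were Notch1 at -0.39 (SE 0.12), Satb1 at -0.33 (SE 0.13) and Ikzf1 at -0.29 (SE 0.12), and 0 of 17 passed over all genes (limma). All 3 regulate the entry into the lymphoid path. Under cyclic loess the lower count stayed at 16 of 17, and without Dnmt3a+/- replicate 2 the median was -0.16. The lower count was 15 of 17 with no filter on dim probe sets or without wild-type replicate 1. It was 14 of 16 with the filter at the 75th percentile and 17 of 17 with array weights. With the median of probe sets it was 14 of 17, as it was without wild-type replicate 3 or Dnmt3a+/- replicate 1. The 3 genes with such a p became 1 after cyclic loess, 2 after a second quantile normalization and 7 with array weights. They became 1 without wild-type replicate 3 or Dnmt3a+/- replicate 1 or 2, 2 without wild-type replicate 2, and 7 without Dnmt3a+/- replicate 3.

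**Figure D4:**
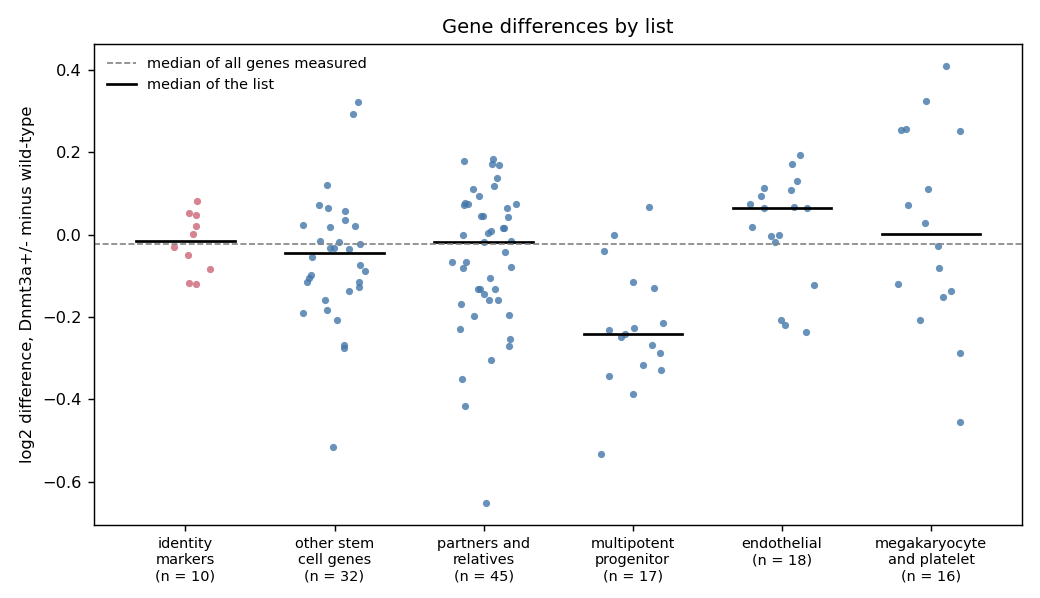
Log2 difference of each gene (vertical axis), Dnmt3a+/- minus wild-type, for the identity markers (red) and 5 other gene lists (blue); bars are list medians and the dashed line is the median of all genes measured, -0.02. The markers lie between -0.12 and 0.08, while 16 of 17 progenitor genes lie below 0.

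Several of the 10 markers are also made by endothelial cells or megakaryocytes, so the markers of those cells were read on the same arrays. All 18 endothelial markers were measured, 6 lower and 12 higher, with a median of 0.07 and 0 at unadjusted p under 0.05, beside 7.49% of all genes. Their mean level per array was 7.35 to 7.55 in wild-type and 7.37 to 7.53 in Dnmt3a+/- cells (log2). The 3 smallest p-values of the list (limma) were those of Pecam1, Egfl7 and Mmrn2. Pecam1, which blood cells also make, stood at -0.24 (SE 0.12), Egfl7 at -0.21 (SE 0.13) and Mmrn2 at 0.17 (SE 0.15). The genotypes did not overlap for 2 of the 18, 1 lower (Pecam1) and 1 higher (Stab2), beside 15.8% of all genes. Cdh5, the defining cadherin of endothelium, read 7.68, 7.34 and 7.48 on the wild-type arrays and 7.71, 7.51 and 7.62 on the Dnmt3a+/- ones. Its difference was 0.11 (SE 0.13). Of the megakaryocyte and platelet markers 16 of 17 were measured, 8 lower and 8 higher, with array means of 7.29 to 7.56 in wild-type and 7.21 to 7.63 in Dnmt3a+/- cells. Gp1bb, a subunit of the platelet receptor for von Willebrand factor, stood at 0.33 (SE 0.14), the thrombin receptor gene F2rl2 at -0.45 (SE 0.20) and the collagen receptor Gp6 at 0.26 (SE 0.12). Of the markers of mature lineages 19 of 25 were measured, 7 lower and 12 higher. An unadjusted p under 0.05 was found for 6, or 31.6%, beside 7.49% of all genes, with 2 lower and 4 higher, beside 4.57% and 2.92% of all. The 2 lower were Csf1r and Ptprc, the leukocyte antigen already read with the gate. The monocyte receptor Csf1r differed by -0.73 (SE 0.19), the macrophage gene Adgre1 by 0.42 (SE 0.15) and the T cell gene Cd3e by 0.33 (SE 0.12). With 1 array left out the 6 became 5 or fewer, and 1 without wild-type replicate 3, 2 without wild-type replicate 2 or Dnmt3a+/- replicate 2 and 4 without Dnmt3a+/- replicate 1 or 3. They became 3 of 20 with no filter on dim probe sets and 3 of 14 with the filter at the 75th percentile. With the median of probe sets they became 2 of 19, and with array weights 7 of 19. The array means were 7.60 to 7.89 in wild-type and 7.74 to 7.94 in Dnmt3a+/- cells. No marker reads 0 on these arrays, and the part of such cells in the values of the 10 genes was not tested.

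For each of the 10 markers, the most similar profile was sought among 142 listed genes, by the root mean square distance between log2 deviations from the wild-type mean over the 6 arrays. Mecom was closest to Kit, the receptor of the sort gate, at a distance of 0.03. Hlf was closest to Txnip (0.04), Fgd5 to Slit3 (0.04), Robo4 to Rag1 (0.05), Ctnnal1 to Ctbp2 (0.07), Mllt3 to Gp9 (0.07) and Procr to Nkx2-3 (0.08). Slamf1 lay near Ctbp1 (0.10), and Esam and Tek had only distant neighbours, Cd4 (0.15) and Dok2 (0.18). Among the markers themselves the closest pair was Hlf and Mecom, at 0.09. These distances describe 6 arrays and favour genes that vary little.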

How the data were processed

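Total RNA of sorted KLS cells was hybridised to 6 one-colour arrays, 3 per genotype, with groups and replicate numbers taken from the labels. The authors deposited linear intensity values made with RMA in Partek, per the submitters' processing notes, with versions and settings not given in the sources used here. Values ran from 1.84 to 22239, with array medians of 59.8 to 61.6, and log2 was taken with no pseudocount. Of 1256831 probe sets, 318760 carried 1 gene symbol in the platform annotation, which can be old. Older symbols were updated through RefSeq (GRCm38.p6), so that Evi1 and Mds1 were read as Mecom. Each gene was given the mean log2 value over those of its probe sets whose mean over all arrays exceeded the median of all (log2 5.89). The test was limma 3.58.1 under R 4.3.3 (lmFit, eBayes, no covariate), run over 20059 genes and over 628415 probe sets, with Benjamini-Hochberg adjustment. The fit was tested on simulated data. Single values were also compared by an exact two-sided permutation test. The number of arrays limits the precision.

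The members and lists were chosen with earlier results of these data known. The rule named the 10 members, Dnmt3a, the 3 smallest p-values of each list and the nearest listed gene of each member; further listed genes, probe sets and neighbours were chosen after their values were seen. Alternatives were 2 scalings, 2 filters, the median of probe sets, array weights, a variance trend, a replicate block, leaving out each array, and, added after seeing the data, leaving out 1 probe set of each member. Same-numbered arrays did not deviate together (correlations of -0.05, -0.09 and 0.11), so the numbers were not taken as pairs.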

Additional observations from a re-analysis of the deposited data

How the results depend on the processing

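Under all 15 alternatives 0 genes passed over all genes and 0 of the 10 markers had an unadjusted p under 0.05 (limma). Over all genes 925 to 2593 had such a p. Hlf, Mecom and Dnmt3a kept their sign in all 15. The fit with the replicate block gave 1274 genes with an unadjusted p under 0.05 and a marker median of -0.01, and it changed no call at adjusted p 0.05 and none of the 10 markers' counts. At unadjusted p under 0.05 it moved the list counts from 1 to 0 (other stem cell genes), 4 to 3 (partners), 6 to 5 (mature lineages), 3 to 4 (progenitors), 1 to 2 (megakaryocytes) and 1 to 0 (sort gate). Array weights gave 2593 such genes, and leaving out 1 array gave 925 to 1928, against 1502. The marker median was -0.098 with no filter on dim probe sets and -0.088 with the median of probe sets, where 8 markers were lower, and it ran from -0.087 to 0.032 when 1 array was left out. Over all genes the median was -0.022 with no filter and -0.025 with the median of probe sets, where 10891 of 20059 were lower. With 1 array left out the all-gene median ran from -0.030 to -0.0064. The markers that did not overlap between genotypes numbered 1 with no filter, with the filter at the 75th percentile and with the median of probe sets. They also numbered 1 without 1 probe set of each marker. Of all genes 15.2%, 15.5%, 13.9% and 15.8% did not overlap under these settings, in that order. With 1 array left out the count was 1 to 3 markers, beside 22.5% to 31.8% of all genes. Each of the other 8 markers changed sign under at least 1 alternative, and the cause was not tested. With no filter Slamf1 was -0.30 and Tek -0.21, and at the 75th percentile Slamf1 was -0.11 and Ctnnal1 0.029. With the median of probe sets Fgd5 was -0.054, Robo4 -0.14 and Tek -0.12. With array weights Robo4 was -0.078 and Tek -0.053, and after cyclic loess Tek was -0.0018. Without the probe set of largest difference Procr was 0.052 and Slamf1 -0.065. Leaving out single arrays gave ranges of -0.16 to 0.069 for Procr, -0.063 to 0.13 for Slamf1, -0.14 to 0.012 for Mllt3, -0.093 to 0.18 for Esam, -0.14 to 0.15 for Robo4 and -0.19 to 0.22 for Tek. With 3 arrays per genotype the half-widths of the 95% intervals were 0.23 (Mecom) to 0.50 (Tek) on the log2 scale. An observed difference smaller than its half-width does not reach an unadjusted p of 0.05 (limma). How large a true difference must be to be found, also after adjustment over all genes, was not tested.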

Other observations

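Robo4 and Esam are near neighbours on the chromosome, with Robo3 and Msantd2 between them and Hepacam and Vsig2 on either side, by the RefSeq gene order. Robo4 (0.05), Robo3 (0.06), Esam (0.05) and Hepacam (0.07) all lay near 0 on the log2 scale. Msantd2, the gene next to Esam, read 7.45, 6.88 and 7.59 on the wild-type arrays and 6.13, 6.54 and 6.29 on the Dnmt3a+/- ones, lower on every Dnmt3a+/- array. Its log2 difference of -0.98 (SE 0.20, unadjusted p = 0.00128) did not pass over all genes (limma, adjusted p = 0.631), and its gene value rests on 1 probe set. Vsig2, on the other side of Esam, also did not overlap between genotypes, at -0.24 (SE 0.13). These genes were looked at because of their position after the values of the markers were known.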
